A study of Mus musculus with 6 samples.

Results

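The 38 genes described here are type I interferon-stimulated antiviral genes, taken by name from a list of such genes and looked up by symbol among the 55487 gene IDs of the count table. All 38 were found, and all 38 passed the filter on low counts. Libraries came from B16F10 melanoma grafts in the tongue of C57BL/6J mice, whose genotype the labels give as WT. In 3 inhibition libraries, the cervical lymph nodes had received AAV2/retro-Trpv1-hM4D(Gi)-mCherry, a retrograde vector whose inhibitory receptor silences nociceptive nerves when its ligand is given. In 3 control libraries, the matching vector was AAV2/retro-Trpv1-mCherry, which carries the fluorescent label without the receptor. B16F10 cells were placed under the tongue mucosa 6 weeks after the vector, and deschloroclozapine, the receptor's ligand, was given 2 times per day for 12 days.

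The design text gives the ligand for mice of either vector, whereas the labels call the controls vehicle-treated, so what the controls received is not settled. The table's column headings call the inhibition libraries denervation, whereas the sample titles call them nerve inhibition. The vector reaches nerves that project to the nodes and is driven by a Trpv1 element, B16F10 is a single melanoma line, and RNA was taken from the whole graft after non-tumour tissue was cut away. Age and number of animals are not given in the sources used here, nor whether each library came from its own mouse, so the spread behind each p-value is that between libraries and may be technical. Total counts ran between 14477277 and 20972494 in the inhibition libraries and between 15420091 and 20914180 in the control libraries. All 9 melanocyte lineage markers were detected, with a summed level of 30550 to 35660 CPM (counts scaled to library size) in inhibition grafts and 23630 to 31480 CPM in control grafts.

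Type I interferons are cytokines that cells release after sensing foreign or misplaced nucleic acids. They bind a receptor made of Ifnar1 and Ifnar2, and the kinases Jak1 and Tyk2 then activate Stat2, which joins Irf9 in a complex called ISGF3. ISGF3 binds the interferon-stimulated response element in the promoters of antiviral genes, whose products sense viral RNA, degrade RNA, block translation or hold back virus release. In tumours, these genes are expressed by cancer cells and by infiltrating myeloid cells.

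The response element is shown for 6 members because it is the element through which ISGF3 acts, and it was found in some of the members. The letters searched were GAAA, any 2 bases and GAAA again, on both strands, in windows from 250 bases before to 50 bases after each gene's start, taken from RefSeq on GRCm38.p6. Capitals mark the matches, which read TTTC, 2 bases and TTTC where they lie on the opposite strand of the gene, and every stretch is written along the gene's own strand. Stretches lie at chr4:156200860-156200911 on the minus strand for Isg15, chr19:34640770-34640828 on the plus strand for Ifit1, chr19:34583358-34583431 on the plus strand for Ifit3 and chr19:34607754-34607827 on the plus strand for Ifit3b. Those of Oas3 and Rsad2 lie at chr5:120777710-120777749 and chr12:26456548-26456587, both on the minus strand.
Isg15: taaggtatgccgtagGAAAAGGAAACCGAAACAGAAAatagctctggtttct
Ifit1: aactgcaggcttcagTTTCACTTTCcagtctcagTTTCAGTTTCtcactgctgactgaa
Ifit3: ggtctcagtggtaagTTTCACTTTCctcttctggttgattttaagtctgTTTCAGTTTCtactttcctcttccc
Ifit3b: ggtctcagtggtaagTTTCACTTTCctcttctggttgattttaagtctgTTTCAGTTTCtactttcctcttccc
Oas3: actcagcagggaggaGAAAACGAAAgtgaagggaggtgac
Rsad2: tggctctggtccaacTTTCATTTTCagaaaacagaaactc

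Isg15 holds 3 overlapping matches, Ifit1, Ifit3 and Ifit3b hold 2 each, and the 74-base stretches of Ifit3 and Ifit3b differ at 0 positions. Windows were given for 27 of the 38 members, and 14 of these (51.9%) hold at least 1 match. Among all 27025 genes with a window, 1079 (3.99%) hold a match. The motif TTCNNNGAA, the core of the element through which interferon gamma acts, can share bases with the longer motif and is present in 6 of the 27 member windows (22.2%) and in 2582 of all windows' genes (9.55%). Windows of Ifit2, Irf7, Irf9 and Lgals3bp are among those without the longer motif, which says only that these letters are not in that stretch. Dhx58, Zbp1, Ifi204, Oas2, Usp18, Mx1, Mx2, Parp9, Parp14, Rtp4 and Ifi27l2a were not matched to a window.

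None of the 38 genes differed between inhibition and control grafts at an adjusted p under 0.05 in edgeR's quasi-likelihood test. Across all 15666 genes tested, 6 genes (0.0383%) passed, 5 higher (0.0319%) and 1 lower (0.00638%) in inhibition grafts. The smallest adjusted p among the members was 0.223, for Ifi204. At an unadjusted p under 0.05 the count was 1 of 38, Ifi204, which was higher, against 15.4% of all genes tested in either direction and 8.36% higher. Libraries of the groups did not overlap for 1 of 38 members, Oas3, against 21.3% of all genes tested. Both shares lie below those of all genes.

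Estimated fold changes leaned towards the inhibition grafts for 29 of the 38 members, and 9 lay below 0, whereas 51.0% of all genes tested lay above 0. The members' median log2 fold change, inhibition over control, was 0.23, with quartiles at 0.0028 and 0.55 and a range of -0.32 (Rsad2) to 1.40 (Oas3). The median of all genes tested was 0.0049. By role, the oligoadenylate synthetase family had the highest median, 0.78 over 5 genes. The poly(ADP-ribose) polymerase and Dtx3l group had the lowest, -0.08 over 3 genes.

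**Figure D1:**
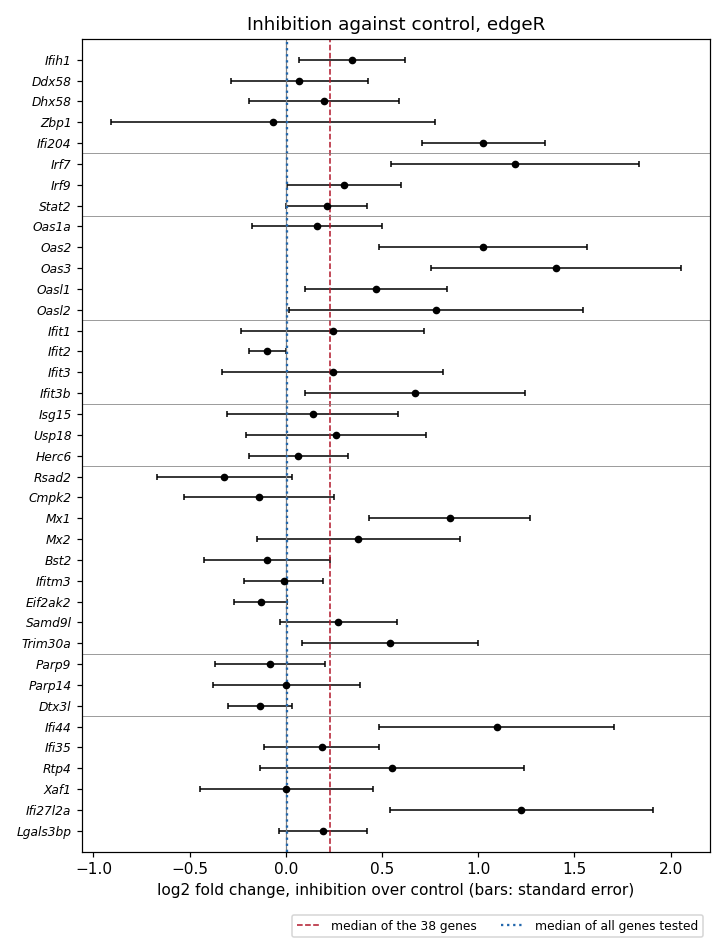
Log2 fold change of each of the 38 genes, inhibition over control (horizontal axis), with bars of 1 standard error; rows are ordered by role and grey lines separate the roles. The dashed line is the members' median of 0.23 and the dotted line that of all genes tested, 0.0049; no gene passed the test.

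The members moved together from graft to graft more than they differed between the groups. Their mean log2 CPM, relative to the mean of the controls, was 0.80, 0.56 and -0.07 in inhibition replicates 1, 2 and 3. In control replicates 1, 2 and 3 it was -0.35, 0.78 and -0.42. Control 2 therefore lay beside inhibition 1, and inhibition 3 lay nearer to controls 1 and 3 than to the other inhibition grafts. Control 2 was the highest control for 37 of 38 members (97.4%), against 32.3% of the 12958 genes with a mean of at least 2 CPM. Inhibition 3 was the lowest inhibition graft for 37 of 38 (97.4%), against 34.8% of those genes. These counts describe a pattern noticed in the same values.

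Both held for 36 members (94.7%) and for 14.9% of genes. The highest library of all 6 was control 2 for 20 members, inhibition 1 for 16, inhibition 2 for Ifi27l2a and control 1 for Eif2ak2. The lowest was control 3 for 20 members, control 1 for 11, inhibition 3 for 6 and inhibition 2 for Ifit2. Across the 6 grafts the highest level was a median of 2.66 times the lowest, against 1.33 times over genes with a mean of at least 2 CPM. The narrowest span was that of Ifit2, 1.21 times.

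**Figure D2:**
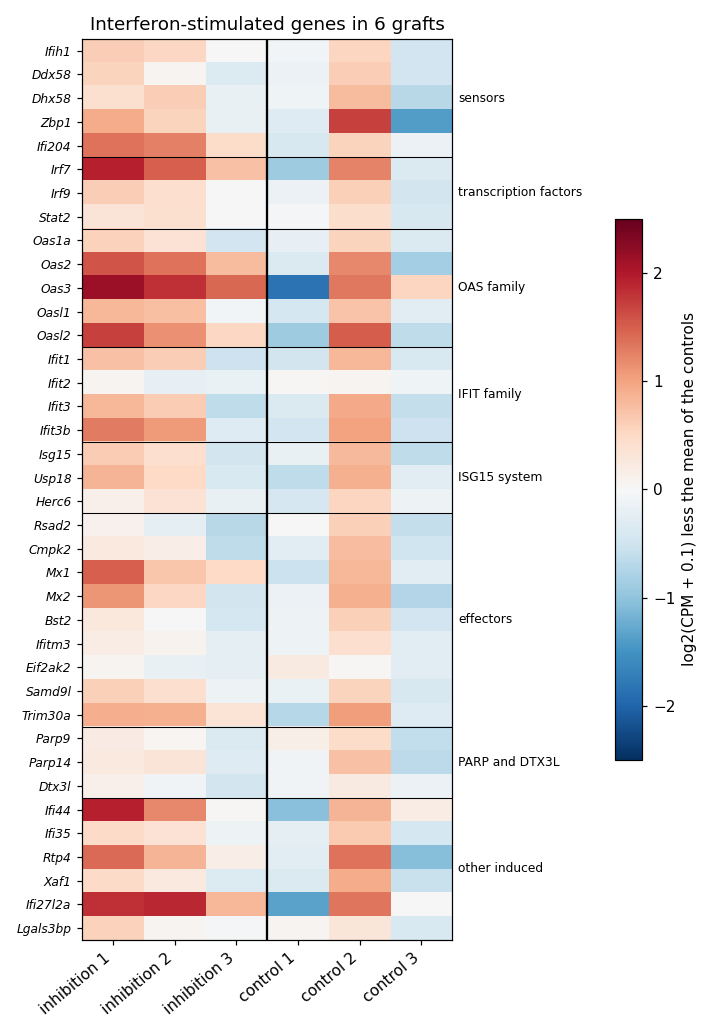
Level of the 38 genes (rows, ordered by role) in the 6 grafts (columns, inhibition left of control) as log2(CPM + 0.1) less the mean of the controls. Most rows are above the mean of the controls (red) in inhibition 1, inhibition 2 and control 2 and below it (blue) in controls 1 and 3.

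Among the cytosolic sensors, Ifi204, a DNA-binding HIN-200 protein (ENSMUSG00000073489, chromosome 1, 173747293 to 173766943, minus strand, GRCm38), had the smallest p of all members. It measured 14.9, 13.8 and 7.86 CPM in inhibition grafts, against 4.28, 8.52 and 5.13 CPM in control grafts. Control 2 exceeded inhibition 3, so the groups overlapped by that pair. Means were 12.2 ± 3.77 CPM in inhibition grafts and 5.98 ± 2.24 CPM in control grafts (SD, n = 3 each), a log2 fold change of 1.03 ± 0.32 (SE, adjusted p = 0.223). Of the 50-base stretches of Ifi204's exons, 20% also occur in another gene, most often Ifi211, so reads could be shared between them. DESeq2 called Ifi204 (adjusted p = 0.0352), as did the fit with no filter on low counts. Those fits called 541 of 15666 and 1187 of 28841 genes, against 6 of 15666 in the filtered edgeR fit.

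Ifih1, the MDA5 sensor of long double-stranded RNA, measured 17.9, 16.6 and 11.5 CPM in inhibition grafts and 11.1, 16.9 and 8.32 CPM in control grafts. Its groups overlapped, with inhibition 1 and control 2 highest, and the log2 fold change was 0.34 ± 0.28 (SE, adjusted p = 0.572). Dhx58, the regulatory helicase LGP2, measured 5.89, 6.87 and 3.86 CPM in inhibition grafts and 4.10, 7.74 and 2.71 CPM in control grafts, again with control 2 on top (log2 fold change 0.20 ± 0.39, adjusted p = 0.831). Ddx58, which encodes RIG-I, and Zbp1, a sensor of Z-form nucleic acid, had log2 fold changes of 0.07 and -0.07. Zbp1 spanned 4.81 to 10.5 CPM in inhibition grafts, inside the range of the control grafts, which ran between 2.03 CPM in control 3 and 18.3 CPM in control 2.

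All 3 transcription factor members had estimates above 0 and overlapping groups. Irf7, the interferon-induced amplifier of interferon transcription (chromosome 7, 141262706 to 141266481), measured 26.4, 19.3 and 11.2 CPM in inhibition grafts, against 3.62, 16.2 and 5.23 CPM in control grafts. Only control 2 reached into the inhibition range. The mean was 19.0 ± 7.59 CPM in inhibition grafts and 8.35 ± 6.85 CPM in control grafts (SD, n = 3 each), with a log2 fold change of 1.19 ± 0.65 (SE, adjusted p = 0.435). Stat2 measured 25.2, 26.4 and 20.2 CPM in inhibition grafts and 19.4, 27.4 and 15.3 CPM in control grafts (log2 fold change 0.21, adjusted p = 0.656). Irf9 measured 31.0, 26.9 and 20.3 CPM in inhibition grafts and 18.3, 30.6 and 14.7 CPM in control grafts (log2 fold change 0.30, adjusted p = 0.660). Both ISGF3 subunits thus spanned a narrower range than Irf7, with the same grafts high.

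The oligoadenylate synthetases make the messenger that activates RNase L, and the OAS-like proteins act in RNA sensing without that activity in some members. Oas3 (ENSMUSG00000032661, chromosome 5, 120753098 to 120777661, minus strand) measured 4.34, 3.48 and 2.62 CPM in inhibition grafts, against 0.181, 2.41 and 1.36 CPM in control grafts. Every inhibition graft lay above every control graft, by a small margin over control 2, and the value in control 1 rests on 3 counts. Means were 3.48 ± 0.862 CPM in inhibition grafts and 1.31 ± 1.11 CPM in control grafts (SD, n = 3 each), a log2 fold change of 1.40 ± 0.65 (SE, adjusted p = 0.353). Oas2 measured 9.18, 7.89 and 5.29 CPM in inhibition grafts, against 2.35, 7.09 and 1.65 CPM in control grafts. Control 2 again reached into the inhibition range, and the log2 fold change was 1.02 ± 0.54 (SE, adjusted p = 0.410). Both genes passed at an adjusted p under 0.05 when no filter on low counts was applied, a fit that called 1187 of 28841 genes.

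Oasl1, which in mouse holds back Irf7 translation, measured 6.24, 5.89 and 3.34 CPM in inhibition grafts and 2.53, 5.79 and 2.86 CPM in control grafts (log2 fold change 0.47 ± 0.37, adjusted p = 0.558). Oasl2 spanned 11.5 to 26.2 CPM in inhibition grafts and 4.28 to 23.1 CPM in control grafts (log2 fold change 0.78). Oas1a, with a log2 fold change of 0.16, shares 57.6% of its 50-base stretches with Oas1g, so its counts may hold reads of both.

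**Figure D3:**
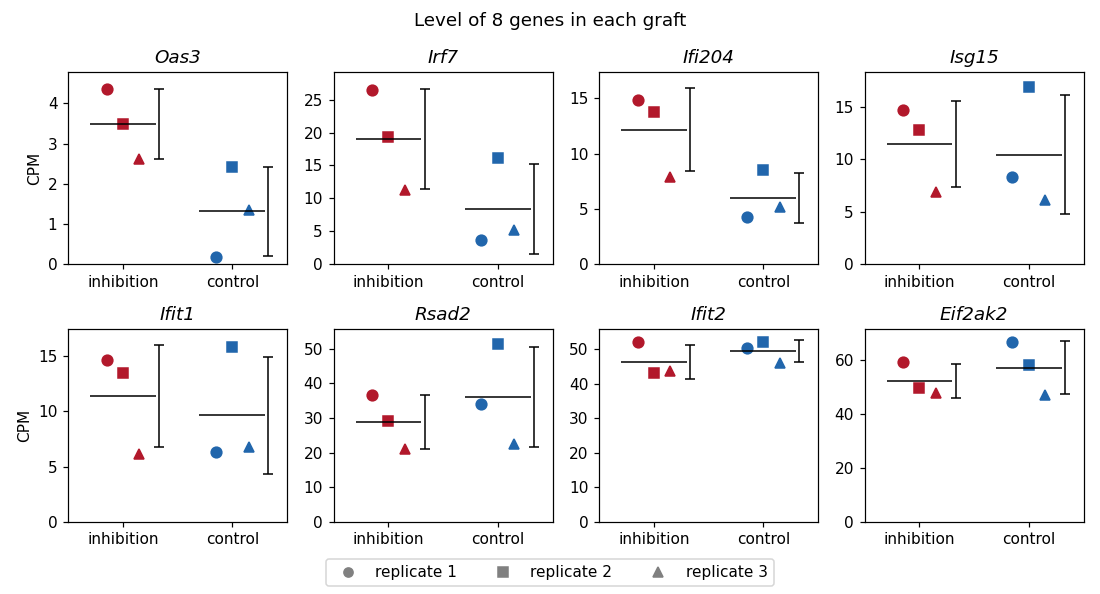
CPM of 8 genes (vertical axes from 0) in each graft, inhibition left of control, with markers for replicates, and bars for the mean and SD (n = 3 each). Control 2 sits among the inhibition grafts for Irf7, and Ifit2 and Eif2ak2 vary little.

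The IFIT proteins bind viral RNA ends and block their translation. The IFIT members lie close together on chromosome 19 between 34550694 and 34650009, with Ifit1bl1 and Ifit1bl2 among them. Ifit1 measured 14.6, 13.5 and 6.10 CPM in inhibition grafts, against 6.34, 15.8 and 6.78 CPM in control grafts. The highest graft was a control and so were the next lowest after inhibition 3, and the log2 fold change was 0.24 ± 0.48 (SE, adjusted p = 0.833). Ifit3b measured 6.10, 5.18 and 1.91 CPM in inhibition grafts and 1.69, 4.95 and 1.65 CPM in control grafts (log2 fold change 0.67 ± 0.57, adjusted p = 0.598). Ifit3 shares 51.2% of its 50-base stretches with Ifit3b, besides the identical promoter stretch printed above, so the split of reads between them is uncertain. Ifit2 differed in pattern from its neighbours, with 51.9, 43.0 and 43.7 CPM in inhibition grafts and 50.3, 51.9 and 45.9 CPM in control grafts. Its means were 46.2 ± 4.95 CPM in inhibition grafts and 49.4 ± 3.13 CPM in control grafts (SD, n = 3 each; log2 fold change -0.10 ± 0.10, adjusted p = 0.660).

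Isg15 is a ubiquitin-like protein that is attached to other proteins, Herc6 is its main ligase in mouse, and Usp18 removes it and also dampens receptor signalling. Isg15 (chromosome 4, 156199424 to 156200818) measured 14.7, 12.8 and 6.86 CPM in inhibition grafts, against 8.33, 16.9 and 6.10 CPM in control grafts. Control 2 was highest and control 3 lowest, so the control range held the inhibition range (log2 fold change 0.14 ± 0.44, adjusted p = 0.903). Usp18 measured 7.85, 6.10 and 3.29 CPM in inhibition grafts and 2.72, 8.07 and 3.58 CPM in control grafts (log2 fold change 0.26, adjusted p = 0.816). Herc6 measured 18.0, 21.01 and 14.4 CPM in inhibition grafts and 12.2, 23.9 and 15.003 CPM in control grafts (log2 fold change 0.06, adjusted p = 0.922). Of Herc6's 50-base stretches, 12.5% also occur in another gene, mostly an overlapping one.

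Of the 9 members listed as antiviral effectors, 4 had estimates above 0 and 5 below. Mx1, of the dynamin-like GTPase family, measured 7.92, 4.51 and 3.91 CPM in inhibition grafts, against 1.87, 4.95 and 2.23 CPM in control grafts. Only control 2 entered the inhibition range (log2 fold change 0.85 ± 0.42, adjusted p = 0.369). Trim30a, a mouse tripartite-motif protein, measured 10.7, 10.5 and 7.20 CPM in inhibition grafts and 3.38, 11.6 and 4.50 CPM in control grafts (log2 fold change 0.54 ± 0.46, adjusted p = 0.599). Eif2ak2, the kinase PKR that halts translation on double-stranded RNA, measured 59.4, 49.8 and 47.8 CPM in inhibition grafts and 66.7, 58.2 and 47.1 CPM in control grafts. It was the only member with control 1 highest (log2 fold change -0.13 ± 0.14, adjusted p = 0.665). Rsad2, which encodes viperin, and Cmpk2, its neighbour that supplies nucleotides, had log2 fold changes of -0.32 and -0.14, each with control 2 as the highest graft, at 51.5 and 16.9 CPM. Mx2, Bst2 (tetherin), Ifitm3 and Samd9l had log2 fold changes between -0.10 and 0.38. Mx2 is annotated as a polymorphic pseudogene. For Mx1 as for Mx2, RNA levels do not show whether a working protein is made.

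Parp9 and Dtx3l form a complex that modifies histones, and their genes overlap on opposite strands. Parp9 measured 30.1, 27.0 and 20.2 CPM in inhibition grafts, against 29.0, 35.9 and 17.0 CPM in control grafts (log2 fold change -0.08, adjusted p = 0.911). Dtx3l measured 23.4, 20.2 and 15.6 CPM in inhibition grafts and 20.2, 25.2 and 19.6 CPM in control grafts (log2 fold change -0.13, adjusted p = 0.719). Parp14, another ADP-ribosyltransferase, measured 23.7, 25.2 and 15.96 CPM in inhibition grafts and 18.8, 33.4 and 12.7 CPM in control grafts (log2 fold change 0.0029, adjusted p = 0.998). In all 3 genes control 2 was highest and the groups overlapped, and strand was not settled for the counts of the overlapping pair.

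The remaining 6 induced genes had estimates above 0, of which that of Xaf1 was 0.0028. Ifi27l2a, a small interferon-induced protein, measured 14.4, 14.9 and 7.10 CPM in inhibition grafts, against 1.51, 10.2 and 3.97 CPM in control grafts. Control 2 exceeded inhibition 3, and the log2 fold change was 1.22 ± 0.68 (SE, adjusted p = 0.441). Ifi44 measured 4.97, 2.92 and 1.24 CPM in inhibition grafts and 0.543, 2.28 and 1.40 CPM in control grafts (log2 fold change 1.10 ± 0.61, adjusted p = 0.423). Lgals3bp, a secreted glycoprotein, measured 303, 214 and 197 CPM in inhibition grafts and 215, 252 and 157 CPM in control grafts (log2 fold change 0.19 ± 0.23, adjusted p = 0.715). Ifi35 and Rtp4 had log2 fold changes of 0.19 and 0.55. Per kilobase of exon and averaged over the 6 grafts, Ifitm3 had the highest level of the 38 at 144 CPM per kb, followed by Lgals3bp at 78.4 and Bst2 at 53.6. Oas3, at 0.339 CPM per kb, and Ifi44, at 0.363, had the lowest.

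Leaving out a single graft moved the members' median. Without control 2 it was 0.65, 35 of 38 estimates lay above 0 and 0 passed the adjusted threshold (smallest adjusted p = 0.0623, edgeR). In that fit 19 of 38 members were higher at an unadjusted p under 0.05, against 10.2% of the 16262 genes tested. Control 2 was the highest control for 37 of 38 members, so leaving it out raises their estimates by construction. Members also moved together from graft to graft, so these 19 are not separate results. Without control 2 the log2 fold change was 2.07 for Irf7, 1.88 for Oas2, 1.95 for Oasl2, 2.10 for Ifi27l2a and 1.27 for Zbp1. For 31 members this fit gave the estimate farthest from 0 of the 6, and for 18 members leaving out some graft turned the sign. Without inhibition 3 the median was 0.43. Without inhibition 1 it was 0.0352, without inhibition 2 0.123, without control 1 0.0728 and without control 3 0.0235. The number of members called was 0 in each of these 6 fits.

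**Figure D4:**
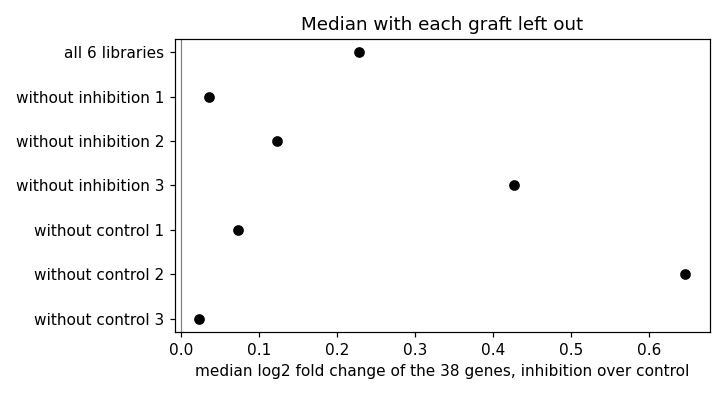
Median log2 fold change of the 38 genes, inhibition over control (horizontal axis), with all grafts and with each left out in turn. It lies between 0.0235 without control 3 and 0.65 without control 2.

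Interferon transcripts themselves were at or near 0. Of 19 type I and type III interferon genes, 15 had 0 counts in all 6 libraries, Ifnb1 among them, and 0 passed the filter. A count of 0 allows up to 3 counts, which is 0.143 to 0.21 CPM depending on the library, for counting error only. Ifna4 had 1 count in inhibition 3, Ifne 1 in inhibition 2, Ifnk 1 in inhibition 2 and 2 in inhibition 3, and Ifnl2 3 in control 1.

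Among 7 receptor and signalling genes, 0 passed the adjusted threshold and 4 estimates lay above 0. Il10rb, which pairs with Ifnlr1 in the type III interferon receptor, measured 85.8, 73.6 and 59.3 CPM in inhibition grafts, against 36.7, 49.0 and 58.2 CPM in control grafts. The inhibition grafts all lay above the control grafts (log2 fold change 0.60 ± 0.20, adjusted p = 0.242). Ifnar1 measured 120, 111 and 102 CPM in inhibition grafts and 96.7, 96.7 and 101 CPM in control grafts (log2 fold change 0.17 ± 0.08, adjusted p = 0.327). Ifnlr1 had a log2 fold change of 0.34 (adjusted p = 0.410).

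Of 6 negative regulators, 0 passed and 1 estimate lay above 0. Socs3, a feedback inhibitor of Jak kinases, measured 28.1, 28.0 and 34.3 CPM in inhibition grafts, against 38.8, 36.5 and 35.1 CPM in control grafts, with no overlap (log2 fold change -0.29 ± 0.10, adjusted p = 0.255). Ptpn2 and Socs1 had log2 fold changes of -0.14 and 0.35. Of 16 genes that induce interferon, 0 passed and 11 estimates lay above 0, with a median of 0.04. Irf3, the factor that starts interferon transcription, measured 38.4, 40.6 and 41.6 CPM in inhibition grafts and 30.3, 37.3 and 33.2 CPM in control grafts, without overlap (log2 fold change 0.26 ± 0.10, adjusted p = 0.259). Tlr9 and Cgas, both DNA sensors, had log2 fold changes of 1.23 (adjusted p = 0.310) and 0.32 (adjusted p = 0.332). The estimate for Tlr9 rests on low counts, 30, 24 and 30 in inhibition grafts and 3, 17 and 15 in control grafts. Among 5 tested genes that remove stray nucleic acids, Rnaseh2a, Rnaseh2c and Samhd1 had log2 fold changes of -0.13, 0.14 and 0.11, and 0 passed.

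A further list of 66 interferon-stimulated genes gave 61 that were tested, of which 42 had estimates above 0 and 0 passed. Their median log2 fold change was 0.21, and an unadjusted p under 0.05 was reached by 12 genes with higher values in inhibition grafts and 3 with lower ones, of 61. Of all 15666 genes tested, 1310 were higher (8.36%) and 1097 lower at that level. Slfn5 measured 16.5, 20.0 and 15.1 CPM in inhibition grafts, against 7.12, 13.2 and 8.18 CPM in control grafts, with no overlap (log2 fold change 0.86 ± 0.23, adjusted p = 0.186). Isg20, an RNA exonuclease, lay the other way, at 4.27, 6.82 and 4.81 CPM in inhibition grafts and 9.96, 9.37 and 7.31 CPM in control grafts (log2 fold change -0.74 ± 0.23, adjusted p = 0.216). This list's mean level was 0.55, 0.49 and 0.17 in inhibition grafts and -0.32, 0.59 and -0.27 in control grafts. As for the members, inhibition 1, inhibition 2 and control 2 were high and controls 1 and 3 low. Inhibition 3 lay above the mean of the controls for this list, whereas the members lay at -0.07 there.

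A list of the interferon gamma axis, which holds the receptor genes Ifngr1 and Ifngr2 beside response genes, had estimates mostly below 0. Of 11 tested, 9 were below 0, against 49.0% of all genes tested, 0 passed and 0 reached an unadjusted p under 0.05, with a median of -0.74. Irf1, the transcription factor at the head of that response, measured 9.60, 13.5 and 11.1 CPM in inhibition grafts, against 24.1, 35.5 and 10.02 CPM in control grafts. Control 3 lay at the level of the inhibition grafts, and the log2 fold change was -1.02 ± 0.46 (SE, adjusted p = 0.362). Gbp2, a guanylate-binding protein, measured 11.7, 14.04 and 8.72 CPM in inhibition grafts and 39.6, 65.1 and 3.82 CPM in control grafts (log2 fold change -1.65 ± 0.99, adjusted p = 0.480). Gbp4 had a log2 fold change of -1.76 (adjusted p = 0.457). In control 1 this list lay at 0.35 relative to the mean of the controls, whereas the 38 members lay at -0.35 there.

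In whole grafts, fewer cells of a type and less RNA per cell cannot be told apart, so marker levels are given beside the members. Macrophage markers, with 12 of 12 tested, summed to 389.5 to 462.8 CPM in inhibition grafts and 231.3 to 412.2 CPM in control grafts, and control 2 was the highest control. The mean log2 level of the macrophage markers was 0.34, 0.57 and 0.44 in inhibition grafts and -0.33, 0.46 and -0.13 in control grafts. Inhibition 1 was thus the lowest inhibition graft for these markers, whereas it was the highest for the members. Muscle markers, with 12 of 12 tested, summed to 2175 to 3760 CPM in inhibition grafts and 781.8 to 1775 CPM in control grafts. Their mean log2 level was 1.80, 1.60 and 0.90 in inhibition grafts and -0.59, 0.76 and -0.17 in control grafts, so that control 2 was again the highest control and inhibition 3 the lowest inhibition graft. With the muscle level as a covariate the members' median was -0.88, all 38 estimates lay below 0 and 0 were called. In that fit 26 of 38 members were lower at an unadjusted p under 0.05, against 1.90% of all genes tested. The muscle level of every inhibition graft lay above that of every control graft, so muscle level and group cannot be told apart by this fit.

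Epithelial markers summed to 1438 to 4710 CPM in inhibition grafts and 1106 to 2608 CPM in control grafts. Their mean log2 level was 1.26, 1.56 and 0.14 in inhibition grafts and -0.46, 0.62 and -0.17 in control grafts. Neutrophil markers summed to 6.71 to 27.4 CPM in inhibition grafts and 34.0 to 95.1 CPM in control grafts, also without overlap. Of the 12 neutrophil markers 8 were tested, and all 8 had estimates below 0, with a median log2 fold change of -2.51 and 0 called. Fibroblast markers summed to 1077 to 1409 CPM in inhibition grafts and 585.9 to 891.3 CPM in control grafts, and endothelial markers to 280 to 326 CPM in inhibition grafts and 146 to 255.9 CPM in control grafts. Neither sum overlapped between the groups, and all 7 genes of each list had estimates above 0, with 0 called. The mean log2 level of the fibroblast markers was 0.86, 0.82 and 0.44 in inhibition grafts and -0.35, 0.19 and 0.16 in control grafts. Epithelial and fibroblast markers thus shared with muscle control 2 as the highest control and inhibition 3 as the lowest inhibition graft. For endothelial markers inhibition 2 was the lowest inhibition graft, at 0.44. Of 10 markers listed for plasmacytoid dendritic cells, which are known as strong interferon producers, Siglech, Ccr9, Klk1 and Spib stayed under 1 CPM in every library. The list's sum of 120.3 to 172.1 CPM in inhibition grafts and 101.5 to 148.4 CPM in control grafts came mostly from Tcf4, Ly6d and Cox6a2, which other cell types also express, so it does not measure these cells. T and NK cell markers summed to 1.90 to 2.87 CPM in inhibition grafts and 1.27 to 8.46 CPM in control grafts, 12 of 13 were under 1 CPM everywhere, and Gzmb reached 3.32 CPM in control 2. The part of these markers in the members' levels was not tested, since the fit with the muscle covariate cannot separate muscle level from group and no other marker list was fitted.

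**Figure D5:**
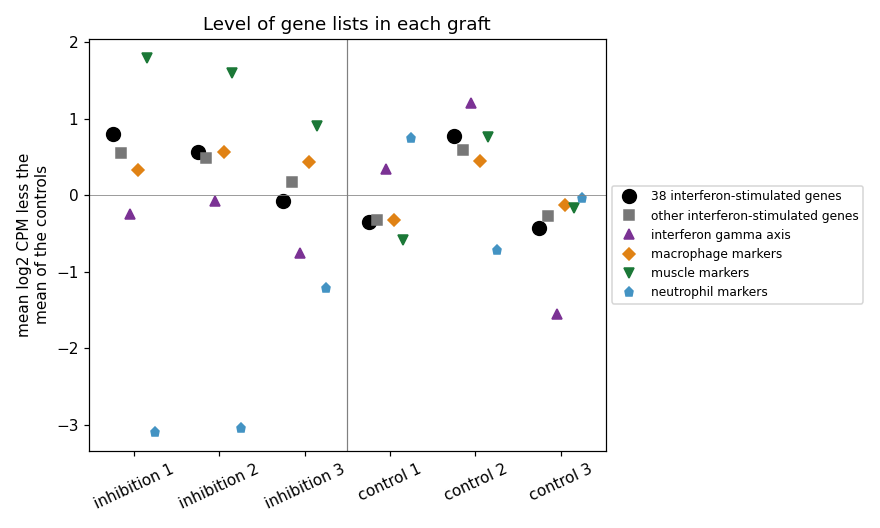
Mean log2 CPM of gene lists less the mean of the controls (vertical axis) in each graft (horizontal axis, inhibition left of control), 1 marker per list. The 38 genes lie at 0.80 in inhibition 1 and 0.78 in control 2, and the interferon gamma list is at -1.55 in control 3.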

How the data were processed

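RNA-seq libraries of 6 grafts, 3 inhibition and 3 control, were aligned with HISAT2 2.0 to mm10, per the submitters' processing notes. The authors deposited raw counts per Ensembl gene ID, and the counting program, annotation, strand setting and filters are not given in the sources used here. Symbols were attached to 55227 of 55487 IDs, and the 260 without one held 0.00197% of counts. No deposited column was left unused (0). Genes were filtered with filterByExpr (minimum count 10, minimum total 15), scaled by TMM and tested with edgeR 4.0.16 (robust quasi-likelihood fit, inhibition against control) in R 4.3.3. P-values were adjusted by Benjamini-Hochberg over 15666 genes and called under 0.05. The fit was tested on simulated data. CPM values use TMM-scaled library sizes.

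The members and all lists were chosen with earlier results of these data known. Values in every library are given for called members, the 3 members of smallest p in each role, and members whose groups do not overlap. For pathway lists the 3 tested genes of smallest p are named; Ifi207 is in the closing section. Other members are given by ranges and estimates. Chi-square per degree of freedom between pairs of libraries was 7.65 to 39.2, and none was deposited in duplicate. Shared sequence was counted over 50-base stretches of annotated exons. Alternatives tried were upper-quartile and RLE scaling, a filter of 1 CPM or none, limma-voom (limma 3.58.1), DESeq2 1.42.0, a replicate block, muscle level as covariate, scaling without muscle and epithelium genes, a threshold of 0.1 and leaving out each library.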

Additional observations from a re-analysis of the deposited data

How the results depend on the processing

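The count of members called was 0 under all alternatives except no filter on low counts, which called 3 (Ifi204, Oas2 and Oas3), and DESeq2, which called 1 (Ifi204). The count over all genes, 6 of 15666 in edgeR, was 1187 of 28841 with no filter and 541 of 15666 with DESeq2. It was 33 at a threshold of 0.1 and 14 with the replicate block. It was 0 with limma-voom, where an unadjusted p under 0.05 was reached by 1286 genes higher and 1043 lower in inhibition grafts, and 0 with the muscle covariate, where 180 were higher and 297 lower. Leaving out each library gave 0 to 217, with 217 without inhibition 3, 24 without control 2, 11 without control 1 and 0 without inhibition 1, inhibition 2 or control 3. The members' median of 0.23 became -0.88 with the muscle covariate and stayed between 0.22 and 0.29 under the other settings that keep all 6 libraries.

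Under the muscle covariate these log2 fold changes turned sign: Ifi204 -0.18, Ifih1 -0.51, Dhx58 -0.93, Irf7 -0.79, Stat2 -0.40, Irf9 -0.60, Oas3 -0.33, Oas2 -0.53, Oasl1 -0.87, Ifit3b -1.37, Ifit1 -1.40, Usp18 -1.45, Isg15 -1.25, Herc6 -0.81, Mx1 -0.55, Trim30a -0.90, Parp14 -1.01, Ifi44 -1.17, Ifi27l2a -0.86, Lgals3bp -0.31, Ptpn2 0.15, Socs1 -0.15, Tlr9 -0.015, Rnaseh2c -0.27 and Samhd1 -0.30. Parp14 was -0.00189 with no filter, -0.00066 with DESeq2 and -0.00245 when muscle and epithelium genes were left out before scaling. Leaving out each library gave estimates on both sides of 0 for Usp18 (-0.029 to 0.83), Isg15 (-0.14 to 0.65), Parp14 (-0.28 to 0.44), Lgals3bp (-0.024 to 0.34), Herc6 (-0.13 to 0.37), Parp9 (-0.34 to 0.15) and Dhx58 (-0.10 to 0.69). The same held for 11 further members, which were Ddx58 (-0.19 to 0.43), Zbp1 (-0.54 to 1.27), Oas1a (-0.05 to 0.48), Ifit3 (-0.04 to 0.87), Rsad2 (-0.57 to 0.01), Cmpk2 (-0.38 to 0.34), Mx2 (-0.04 to 0.96), Bst2 (-0.32 to 0.24), Ifitm3 (-0.15 to 0.21), Ifi35 (-0.03 to 0.57) and Xaf1 (-0.27 to 0.61). The cause was not tested.

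Replicate numbers are shared between the groups, and the labels do not say whether they pair the samples. Deviations of same-numbered libraries from their group means correlated at -0.18, 0.327 and 0.087. With 3 libraries a group, these values cannot settle whether the samples were paired. With the replicate block the members' median was 0.27 with 0 called. With 3 grafts a group the spread between grafts limits what can be called, and for low members such as Oas3, with 3 counts in control 1, depth does as well.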

Other observations

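Genes of the HIN-200 family, DNA-binding proteins encoded near Ifi204 on chromosome 1, were picked out after their values were seen, and none passed the adjusted threshold. Ifi207 measured 13.1, 10.5 and 11.6 CPM in inhibition grafts, against 5.25, 9.37 and 5.86 CPM in control grafts (log2 fold change 0.78 ± 0.23, edgeR adjusted p = 0.199). Ifi211 measured 6.38, 7.69 and 4.96 CPM in inhibition grafts and 0.905, 4.03 and 2.27 CPM in control grafts (log2 fold change 1.40 ± 0.45, edgeR adjusted p = 0.228). In both genes every inhibition graft lay above every control graft, as it did in Ifi209 (log2 fold change 1.10, adjusted p = 0.289) and Ifi213 (log2 fold change 1.74, adjusted p = 0.242), where control 1 had 2 counts. Of all genes tested, 10.2% had every inhibition graft above every control graft. The groups overlapped in Ifi203, Ifi205, Mndal and Aim2, whose log2 fold changes were 0.31, 0.64, 0.64 and 0.35. Sequence shared within the family leaves the division of reads between them uncertain.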
